A study of Homo sapiens with 12 samples.

Results

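Interferon-stimulated genes are the genes that a cell switches on when interferon binds its receptors. A set of 42 of them, chosen by gene symbol, was read out of a table of 57730 genes measured by RNA sequencing in lung-metastatic cells of the human breast cancer line MDA-MB-231, called LM3 by the study. The design crossed a short hairpin RNA against ACSL5, a long-chain acyl-CoA synthetase that activates fatty acids, with palmitic acid (PA), a saturated fatty acid. It holds 4 groups of 3 libraries. The shACSL5+PA cells carried the ACSL5 hairpin and received palmitic acid. The shControl+PA cells carried a control hairpin and received palmitic acid. The shACSL5 cells carried the ACSL5 hairpin without palmitic acid, and the shControl cells carried the control hairpin without it. All 4 groups are lung-metastatic MDA-MB-231 cells, so no parental line and no cells free of a hairpin enter the comparisons. The sources used here do not state the dose, the duration or the vehicle of palmitic acid, the hairpin sequences, or whether a line was 1 clone. Any effect of a vehicle, or of the particular hairpin, cannot be separated here from the treatments themselves. Whether replicates were independent cultures is not stated either, and p-values then reflect the scatter of these libraries alone, possibly technical scatter.

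Type I and type III interferons signal through the kinases JAK1 and TYK2 to STAT2, which enters the complex ISGF3 together with IRF9. ISGF3 binds the interferon-stimulated response element (ISRE) in the promoters of these genes. Their products sense viral RNA (DDX58, also called RIGI, and IFIH1, also called MDA5), bind foreign RNA (the IFIT proteins), make oligoadenylate that activates RNase L (the OAS enzymes), block viral entry (the IFITM proteins) or conjugate the ubiquitin-like protein ISG15. A part of the set, STAT2 and IRF9 among them, belongs to the signalling chain itself. Many tumour cells keep a low, steady expression of these genes with no added interferon.

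Library totals ran from 16788694 to 21814751 counts. ACSL5 stood at 14.9, 13.3 and 17.6 CPM (counts scaled to library size with TMM factors) in shACSL5+PA and 189, 194 and 189.6 in shControl+PA, and at 10.9, 10.2 and 12.5 in shACSL5 and 142, 143 and 145 in shControl. The knockdown libraries held 8.01% of the control level with palmitic acid and 7.82% without it (exact 2-sided permutation test, p = 0.1 in both, the smallest that 3 against 3 can give). Of 10 markers of mesenchymal breast cancer cells every one was detected. Their sum was 6782 to 7057 CPM in shACSL5+PA against 8105 to 8253 in shControl+PA. It was 6935 to 7141 in shACSL5 against 8889 to 9139 in shControl. With palmitic acid 8 of the 10 fell with the knockdown (80%, against 26.1% of all genes tested) and 2 rose (20%, against 24.4%). Without it 6 fell (60%, against 32.6%) and 1 rose (10%, against 29.7%). Of 7 luminal breast epithelial markers, 5 passed the filter on low counts and none was at 0 in all 12 libraries. In that list CDH1, the epithelial cadherin, and ESR1, the oestrogen receptor, averaged at most 0.294 CPM in any group. The list as a whole summed to at least 223 CPM in every library, so luminal markers were not absent from these cells. Of 9 leukocyte markers 3 were at 0 in all 12 libraries (CD3E, MS4A1 and NKG7). The summed leukocyte markers ran from 45.4 to 54.1 CPM in shACSL5+PA, 35.7 to 37.4 in shControl+PA, 48.0 to 53.5 in shACSL5 and 35.3 to 37.8 in shControl, and CD68 made up nearly all of it (means of 49.9 CPM in shACSL5+PA, 36.4 in shControl+PA, 49.7 in shACSL5 and 36.4 in shControl). The summed luminal breast markers moved as well, with 223 to 252 CPM in shACSL5+PA, 279.6 to 294 in shControl+PA, 237 to 261 in shACSL5 and 359 to 385 in shControl. The summed fibroblast markers were 18.4 to 19.3 CPM in shACSL5+PA, 13.2 to 14.7 in shControl+PA, 25.7 to 29.9 in shACSL5 and 20.7 to 22.9 in shControl. The summed endothelial markers were 1.47 to 2.15 CPM in shACSL5+PA, 2.13 to 3.04 in shControl+PA, 1.74 to 2.00 in shACSL5 and 3.79 to 5.87 in shControl. The part of these marker shifts in the results below was not tested, and in bulk RNA fewer cells of a type and less RNA per cell cannot be told apart.

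No interferon transcript was detectable beyond 3 counts. Of 21 genes for type I, II and III interferons, 20 were at 0 in all 12 libraries, IFNB1, IFNG and every IFNA gene in the list among them. A count of 0 in the 225922162 counts of the 12 libraries allows up to 0.0133 CPM at a floor of 3 counts, which covers counting error only. IFNL1, a type III interferon, had 3 counts in all, 2 in shACSL5+PA replicate 2 and 1 in shACSL5+PA replicate 3.

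Of the 42 interferon-stimulated genes, 36 passed the filter on low counts and were tested. The other 6 had few reads. CMPK2, a mitochondrial nucleotide kinase, had 1 count in all 12 libraries. RSAD2, the antiviral enzyme viperin, had 0 to 6 counts per library, BST2 (tetherin, which holds budding virus at the cell surface) 0 to 7, TRIM22 0 to 8, IFITM1 0 to 16 and IFI27 1 to 9. IFI27 held 2, 1 and 2 counts in shACSL5+PA against 6, 9 and 8 in shControl+PA, and 3, 6 and 4 in shACSL5 against 8, 8 and 9 in shControl. With no filter on low counts it was called lower with palmitic acid (log2 -2.23, adjusted p = 0.0476) and not called without it (log2 -0.97, adjusted p = 0.410), and the other 5 were called in no comparison.

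Per kilobase of exon, which allows a rough comparison of levels between genes, IFITM3 stood highest in shControl, at 115 ± 4.18 CPM per kilobase (SD, n = 3). The length merges the exons of all annotated transcripts, 941 bases for ISG15, 4947 for OAS1 and 8616 for MX1. Genes with a long merged length can therefore read too low. ISG15 followed at 87.2 ± 1.59, IFITM2 at 64.2 ± 4.42, IFIT3 at 34.4 ± 1.06, IFI44 at 24.4 ± 0.902 and SAMD9 at 21.2 ± 1.02. Each of the first 4 was apart from the next by more than their SDs. IFIT1, IFIT2, IFI6 and DDX58 came next, at 19.4 ± 0.302, 18.7 ± 1.12, 18.5 ± 1.28 and 18.5 ± 0.419, and lay within their spread. The dynamin-like GTPase MX1 and the RNA sensor OAS1, classical interferon-induced genes, were low, at 0.660 ± 0.0684 and 0.548 ± 0.137 CPM per kilobase. Before division by length they averaged 5.69 and 2.71 CPM in shControl. The sum over all 42 genes was 1179, 1187 and 1151 CPM in shACSL5+PA and 1489, 1472 and 1466 in shControl+PA. It was 1285, 1303 and 1273 CPM in shACSL5 and 1535, 1507 and 1491 in shControl, so the knockdown libraries lay below the control libraries in both pairs.

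**Figure D1:**
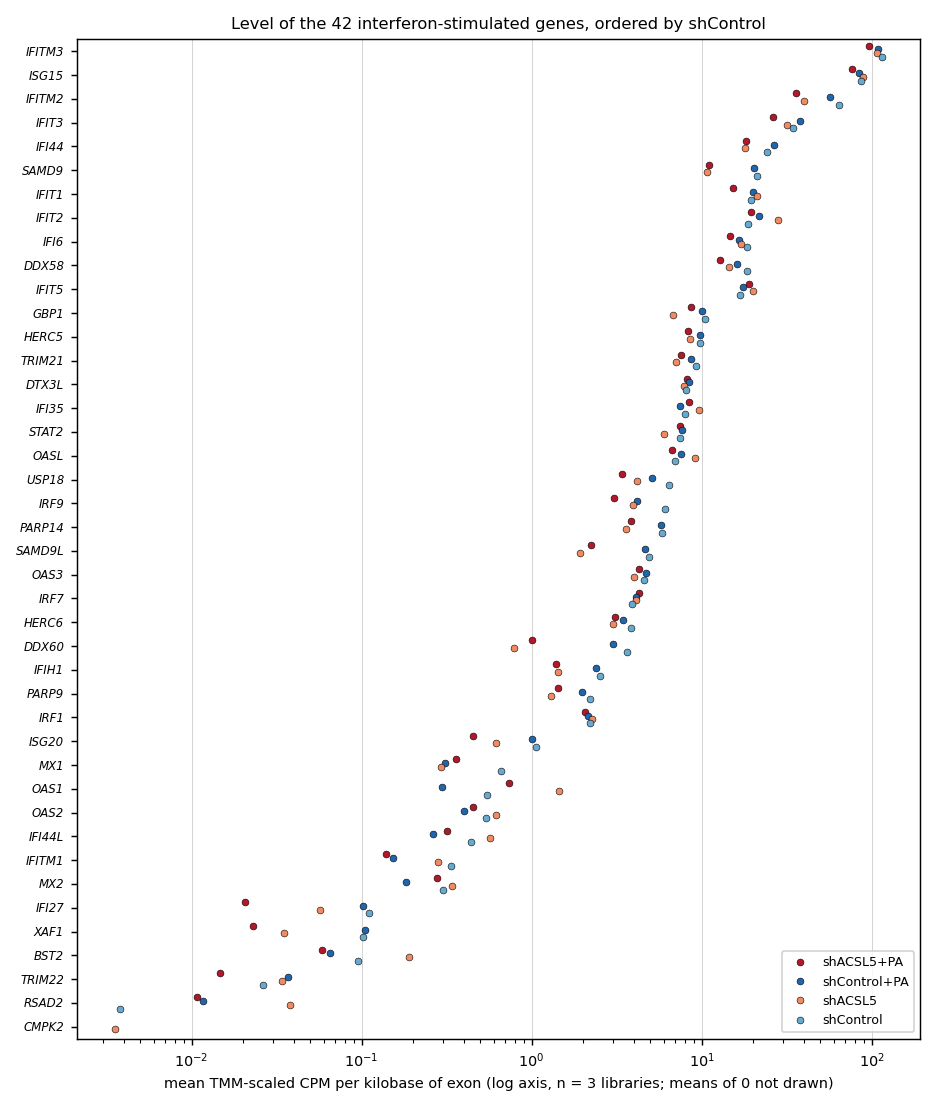
Mean TMM-scaled CPM per kilobase of exon (log axis, n = 3 libraries per group) of the 42 interferon-stimulated genes, ordered by their level in shControl. IFITM3 and ISG15 lie at the top, with 115 and 87.2 CPM per kilobase in shControl, and MX2, IFI27, XAF1, BST2, TRIM22, RSAD2 and CMPK2 lie at the bottom.

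The promoters of these genes carry the ISRE more often than promoters at large, which is given as a description, since the genes were chosen as targets of interferon. Promoter windows of 300 bases (250 before to 50 after the start, RefSeq, GRCh38.p14) were found for 34 of the 42 genes, and not for IFIT2, MX2, OAS2, OASL, IFITM2, USP18, TRIM22 and IRF7. The core, GAAA and GAAA with 2 bases of any kind between them, searched on both strands, was in the window of 24 of the 34 (70.6%). Among all protein-coding genes with a RefSeq promoter entry, it was in 659 of 15843 (4.16%). The shorter GAAANNGAA, which every such core also contains, was in 73.5% of the set and 9.22% of coding genes. For genes whose values are given in every library below, the match nearest the start is printed with 10 bases on each side, read 5′ to 3′ on the gene's strand, with the motif in capitals.
DDX60 (chr4:168318786-168318815, minus strand): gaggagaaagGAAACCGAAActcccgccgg
IFIH1 (chr2:162318686-162318715, minus strand): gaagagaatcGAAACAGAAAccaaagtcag
SAMD9 (chr7:93118096-93118125, minus strand): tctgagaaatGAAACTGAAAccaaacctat
IFIT1 (chr10:89392510-89392539, plus strand): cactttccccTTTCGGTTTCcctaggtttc
IFIT3 (chr10:89332468-89332497, plus strand): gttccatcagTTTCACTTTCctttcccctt
IFI44L (chr1:78620365-78620394, plus strand): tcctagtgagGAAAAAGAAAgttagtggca
MX1 (chr21:41420559-41420588, plus strand): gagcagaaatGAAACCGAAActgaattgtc
GBP1 (chr1:89065316-89065345, minus strand): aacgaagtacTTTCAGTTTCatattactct
ISG20 (chr15:88638937-88638966, plus strand): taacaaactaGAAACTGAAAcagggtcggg
PARP9 (chr3:122564322-122564351, minus strand): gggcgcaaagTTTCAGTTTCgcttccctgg
PARP14 (chr3:122680800-122680829, plus strand): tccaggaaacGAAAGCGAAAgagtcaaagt
IFIH1 has 3 matches in its window, and no match was found in those of OAS1, SAMD9L, STAT2 and IRF9. Among tested genes with a promoter entry, the core was in 2 of 4 that rose, 13 of 19 that fell and 5 of 6 that were not called in shACSL5 over shControl. With palmitic acid it was in 1 of 2 that rose, 13 of 17 that fell and 6 of 10 not called.

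Knockdown of ACSL5 lowered most of the interferon-stimulated genes tested, and raised OAS1. The RNA helicase DDX60, the SAMD9 pair, the RNA sensor IFIH1, ISG20, IFITM2, USP18, IRF9, PARP9 and PARP14 fell both with and without palmitic acid. IFIT1 and IFIT2 rose without palmitic acid and fell with it. With palmitic acid (shACSL5+PA over shControl+PA), 20 of 36 genes fell (55.6%, against 26.1% of all 14706 genes tested) and 3 rose (8.33%, against 24.4%), at an adjusted p under 0.05 by edgeR's quasi-likelihood test with Benjamini-Hochberg adjustment over all genes. Without it (shACSL5 over shControl), 21 of 36 fell (58.3%, against 32.6%) and 6 rose (16.7%, against 29.7%). The 3 rises with palmitic acid became 1 without shControl+PA replicate 2. Falls of at least 0.58 on the log2 scale (about 1.5-fold) were called for 8 genes with palmitic acid (22.2%, against 7.66%) and 13 without it (36.1%, against 14.2%). Falls of at least 1 were called for 4 genes in each comparison (11.1%, against 2.86% with and 6.53% without palmitic acid). In both comparisons these included XAF1, which had only 1 to 23 counts per library. Its call changed in 2 of 17 alternative settings with palmitic acid and in 10 of 18 without it. The median log2 change of the 36 was -0.18 with palmitic acid and -0.25 without it, against -0.0029 and -0.020 over all genes. The set was chosen with earlier results of these data known, so its shares here and below are a description and no independent test. In a further list of interferon-induced genes outside the set, 34.3% fell and 25.7% rose with palmitic acid. Without it 42.9% of that list fell and 28.6% rose. The comparisons use no library in common, but both set ACSL5 hairpin cells against control hairpin cells within a single fit. A fixed difference between those cells would enter both. In the set 16 genes fell in both, of 20 that fell with and 21 that fell without palmitic acid (44.4% of the 36, against 22.7% of all genes).

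**Figure D2:**
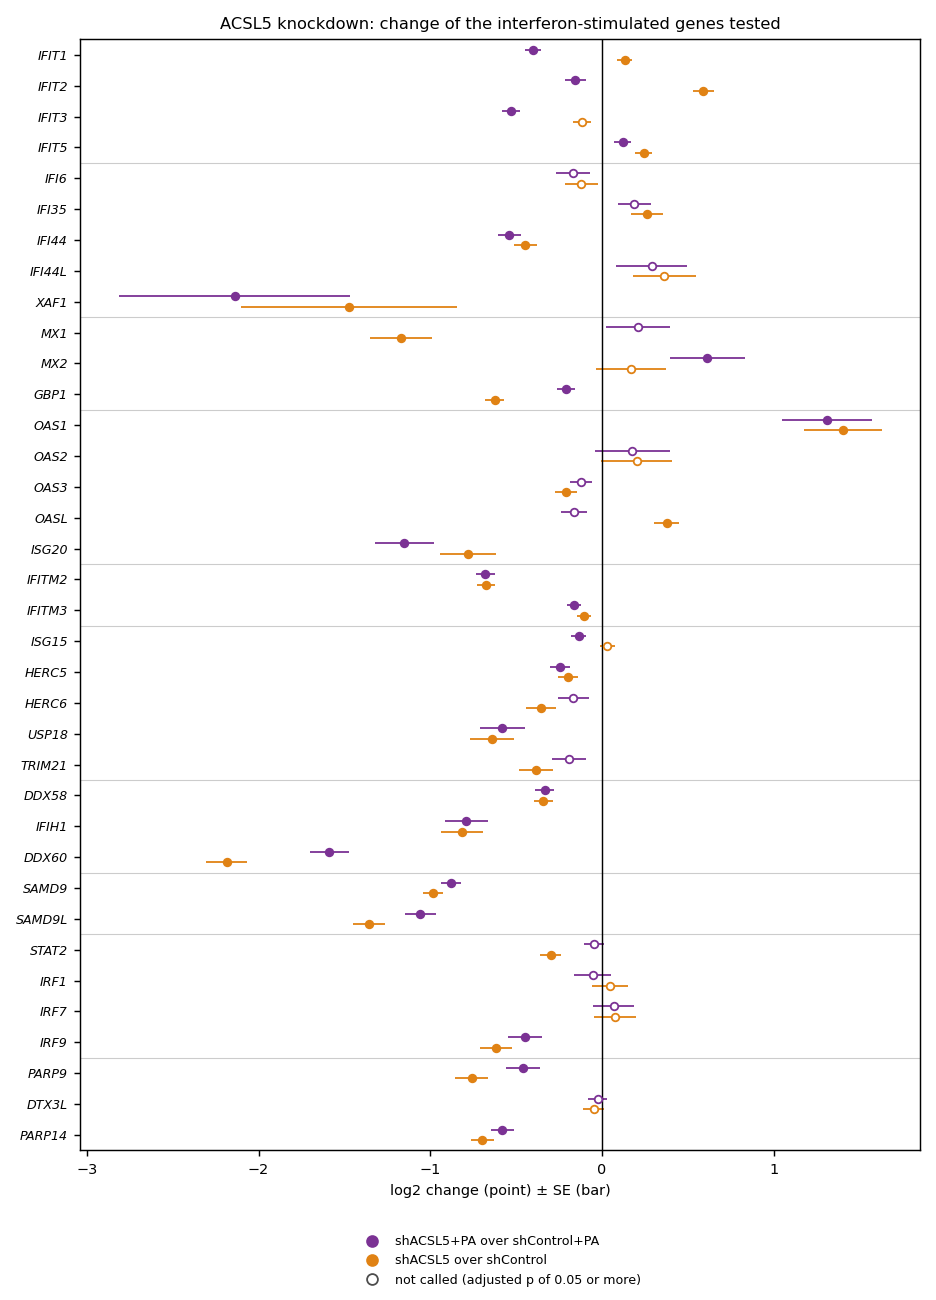
Log2 change with ACSL5 knockdown (point) and its SE (bar) for the 36 genes tested, with palmitic acid (purple) and without it (orange), from 3 libraries per group. Open points were not called at an adjusted p under 0.05. DDX60 lies at -1.59 with and -2.19 without palmitic acid, OAS1 lies above 1 in both, and IFIT1 and IFIT2 lie on opposite sides of 0.

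Among the RNA sensors, DDX60 (ENSG00000137628, chr4:168216293-168318807, minus strand, GRCh38), a helicase related to the DDX58 family, showed the largest fall of the set in cells without palmitic acid. It had 7.10, 6.82 and 6.40 CPM in shACSL5+PA, against 22.2, 19.8 and 19.1 CPM in shControl+PA (log2 -1.59, SE 0.12, adjusted p = 1.18e-10). Without palmitic acid it had 6.05, 4.26 and 5.70 CPM in shACSL5, against 27.3, 22.9 and 23.3 CPM in shControl (log2 -2.19, SE 0.12, adjusted p = 2.61e-13). Every knockdown library lay below every control library in both pairs. IFIH1 (ENSG00000115267, chr2:162267079-162318703, minus strand), which senses long double-stranded RNA, had 7.64, 5.61 and 7.95 CPM in shACSL5+PA against 11.9, 12.7 and 12.0 in shControl+PA (log2 -0.79, SE 0.12, adjusted p = 1.19e-05). Its levels were 7.28, 8.05 and 6.70 CPM in shACSL5 against 13.2, 13.0 and 12.6 in shControl (log2 -0.81, SE 0.12, adjusted p = 4.37e-06). The groups did not overlap in either pair. DDX58, which senses short RNA with a 5′ triphosphate, fell by 0.33 (SE 0.056, adjusted p = 2.91e-05) with and 0.34 (SE 0.055, adjusted p = 1e-05) without palmitic acid, again with no overlap.

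SAMD9 and SAMD9L, neighbouring genes on chromosome 7 whose products restrict poxviruses and cell growth, fell together. SAMD9 (ENSG00000205413, chr7:93099513-93118023, minus strand) had 76.5, 80.4 and 70.1 CPM in shACSL5+PA against 139.6, 149.6 and 129 in shControl+PA (log2 -0.88, SE 0.058, adjusted p = 2.18e-11). It had 77.7, 69.1 and 73.1 CPM in shACSL5 against 152, 145 and 138 in shControl (log2 -0.98, SE 0.058, adjusted p = 1.15e-12). The groups lay far apart in each pair, with no overlap. SAMD9L (ENSG00000177409, chr7:93130055-93148369, minus strand) had 15.6, 17.6 and 14.3 CPM in shACSL5+PA against 33.1, 36.0 and 30.03 in shControl+PA (log2 -1.06, SE 0.091, adjusted p = 1.91e-09). Without palmitic acid it had 14.7, 13.2 and 13.1 CPM in shACSL5 against 38.8, 33.4 and 33.2 in shControl (log2 -1.36, SE 0.093, adjusted p = 1.45e-11). No library overlapped. The count ratio of SAMD9L to SAMD9 was 0.204, 0.219 and 0.205 in shACSL5+PA, against 0.237, 0.241 and 0.233 in shControl+PA. It was 0.189, 0.191 and 0.179 in shACSL5, against 0.255, 0.231 and 0.240 in shControl, so the ratio was lower in every knockdown library than in any control library of its pair (exact 2-sided permutation test over libraries, p = 0.1 in both pairs, the smallest possible).

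The IFIT genes, which lie side by side on chromosome 10 and bind foreign RNA to block its translation, moved in both directions. IFIT1 (ENSG00000185745, chr10:89392546-89406486, plus strand) had 69.7, 70.8 and 71.0 CPM in shACSL5+PA against 93.8, 88.6 and 96.9 in shControl+PA (log2 -0.40, SE 0.045, adjusted p = 9.75e-08). Without palmitic acid it had 94.7, 102 and 98.5 CPM in shACSL5 against 89.1, 91.2 and 88.6 in shControl (log2 0.13, SE 0.044, adjusted p = 0.0122). The knockdown libraries thus lay below the control libraries with palmitic acid and, by less, above them without it, and the small rise was not called without shACSL5 replicate 2 (0.11, adjusted p = 0.0590). IFIT2 (ENSG00000119922, chr10:89283694-89309276, plus strand) had 83.7, 84.9 and 72.1 CPM in shACSL5+PA against 90.6, 88.5 and 89.5 in shControl+PA (log2 -0.16, SE 0.062, adjusted p = 0.0376). It had 117, 124 and 106 CPM in shACSL5 against 81.5, 76.9 and 72.3 in shControl (log2 0.59, SE 0.061, adjusted p = 1.51e-08). The rise was the larger of these changes, and the fall with palmitic acid was not called without shACSL5+PA replicate 3 (-0.087, adjusted p = 0.251), shControl+PA replicate 1 (-0.15, adjusted p = 0.0952), shControl+PA replicate 2 (-0.16, adjusted p = 0.0708) or shControl+PA replicate 3 (-0.16, adjusted p = 0.0711).

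IFIT3 (ENSG00000119917, chr10:89327894-89340971, plus strand), which stabilises IFIT1 on RNA, had 70.6, 72.4 and 64.8 CPM in shACSL5+PA against 104, 97.5 and 98.8 in shControl+PA (log2 -0.53, SE 0.052, adjusted p = 1.39e-08). It had 83.7, 89.3 and 78.6 CPM in shACSL5 against 93.4, 87.8 and 91.1 in shControl (log2 -0.12, SE 0.052, adjusted p = 0.0568). The groups were apart with palmitic acid and overlapped without it. The difference without palmitic acid was called without shACSL5+PA replicate 3 (-0.12, adjusted p = 0.0429), shACSL5 replicate 2 (-0.16, adjusted p = 0.0147) or shControl replicate 2 (-0.14, adjusted p = 0.0486), and with library sizes alone (-0.14, adjusted p = 0.0242). IFIT5 rose by 0.12 with palmitic acid (SE 0.050, adjusted p = 0.0473, groups overlapping) and by 0.24 without it (SE 0.050, adjusted p = 0.000192). The rise with palmitic acid was not called without shACSL5+PA replicate 2 (0.093, adjusted p = 0.184), shACSL5+PA replicate 3 (0.13, adjusted p = 0.0729), shControl+PA replicate 2 (0.11, adjusted p = 0.111), shControl+PA replicate 3 (0.088, adjusted p = 0.209), shACSL5 replicate 1 (0.12, adjusted p = 0.0560), shControl replicate 1 (0.12, adjusted p = 0.0543), shControl replicate 2 (0.12, adjusted p = 0.0601) or shControl replicate 3 (0.12, adjusted p = 0.0558), nor with no filter on low counts (adjusted p = 0.0665). Rising without and falling with palmitic acid was called for 2 of 36 genes, IFIT1 and IFIT2 (5.56%), and for 0.231% of all genes.

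Of the oligoadenylate synthetases, OAS1 (ENSG00000089127, chr12:112906777-112933222, plus strand) had the largest rise of the set. It had 4.46, 2.73 and 3.76 CPM in shACSL5+PA against 1.04, 1.80 and 1.58 in shControl+PA (log2 1.31, SE 0.26, adjusted p = 0.000222). Its level was 7.28, 5.63 and 8.54 CPM in shACSL5 against 2.79, 3.35 and 2.00 in shControl (log2 1.40, SE 0.23, adjusted p = 1.28e-05). The groups did not overlap, at 19 to 162 counts per library. Its neighbours on chromosome 12 differed from it, since OAS3 fell by 0.21 without palmitic acid (SE 0.064, adjusted p = 0.00743) and stood at log2 -0.12, SE 0.064, adjusted p = 0.121 with it, and OAS2 stood at 0.18 and 0.20, neither called. The OAS3 fall was not called without shACSL5 replicate 1 (-0.17, adjusted p = 0.0515), and the difference with palmitic acid was called without shControl+PA replicate 3 (-0.17, adjusted p = 0.0493).

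OASL (ENSG00000135114, chr12:121019111-121039242, minus strand), an OAS relative without synthetase activity that enhances DDX58 signalling, had 25.1, 21.9 and 24.1 CPM in shACSL5+PA against 25.8, 25.7 and 28.1 in shControl+PA (log2 -0.16, SE 0.075, adjusted p = 0.0805). It had 30.5, 31.0 and 34.4 CPM in shACSL5 against 25.4, 23.6 and 24.9 in shControl (log2 0.38, SE 0.074, adjusted p = 0.000120). The rise without palmitic acid passed the test, and with palmitic acid the groups lay apart without passing it. ISG20 (ENSG00000172183, chr15:88636153-88656483, plus strand), an exonuclease that degrades viral RNA, had 3.97, 2.98 and 3.01 CPM in shACSL5+PA against 6.67, 6.58 and 8.94 in shControl+PA (log2 -1.15, SE 0.17, adjusted p = 6.18e-06). It had 4.67, 4.97 and 4.01 CPM in shACSL5 against 8.66, 7.90 and 6.89 in shControl (log2 -0.78, SE 0.16, adjusted p = 0.000262). Its knockdown libraries lay below the controls in both pairs.

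Among the interferon-induced GTPases, MX1 (ENSG00000157601, chr21:41420304-41459214, plus strand), which traps viral nucleocapsids, fell in cells without palmitic acid. It had 3.04, 2.83 and 3.44 CPM in shACSL5+PA against 2.79, 2.47 and 2.78 in shControl+PA (log2 0.21, SE 0.19, adjusted p = 0.379). It had 2.61, 2.49 and 2.48 CPM in shACSL5 against 5.81, 5.05 and 6.21 in shControl (log2 -1.17, SE 0.18, adjusted p = 5.7e-06). The shControl libraries stood above all 9 others, at 42 to 118 counts per library over the table. GBP1 (ENSG00000117228, chr1:89052319-89065360, minus strand), a guanylate-binding protein of cell-autonomous immunity, had 43.2, 43.4 and 43.6 CPM in shACSL5+PA against 50.5, 48.4 and 51.8 in shControl+PA (log2 -0.21, SE 0.054, adjusted p = 0.00234). It had 33.7, 35.7 and 32.1 CPM in shACSL5 against 52.6, 52.8 and 50.9 in shControl (log2 -0.62, SE 0.055, adjusted p = 1.21e-09). Knockdown libraries were lower in both pairs. MX2, the neighbour of MX1, rose by 0.61 with palmitic acid (SE 0.22, adjusted p = 0.0225) and stood at log2 0.17, SE 0.20, adjusted p = 0.484 without it. That rise was not called without shACSL5+PA replicate 1 (0.55, adjusted p = 0.0745), shACSL5+PA replicate 3 (0.58, adjusted p = 0.0552), shControl+PA replicate 1 (0.52, adjusted p = 0.0871) or shControl+PA replicate 2 (0.50, adjusted p = 0.0958).

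Of the IFITM proteins, which block the fusion of viral and cell membranes, IFITM2 (ENSG00000185201, chr11:307631-315272, plus strand) had 55.0, 54.3 and 56.1 CPM in shACSL5+PA against 86.4, 88.8 and 89.6 in shControl+PA (log2 -0.68, SE 0.054, adjusted p = 4.82e-10). It had 61.4, 58.3 and 66.02 CPM in shACSL5 against 91.3, 101 and 104 in shControl (log2 -0.68, SE 0.053, adjusted p = 1.51e-10). The groups did not overlap. IFITM3 changed by -0.16, SE 0.040 (adjusted p = 0.00145) with and -0.10, SE 0.040 (adjusted p = 0.0269) without palmitic acid, the second with overlapping groups and not called without shACSL5 replicate 1 (-0.096, adjusted p = 0.0833), shACSL5 replicate 2 (-0.079, adjusted p = 0.119) or shControl replicate 3 (-0.077, adjusted p = 0.135), nor with the size factors of DESeq2 (-0.084, adjusted p = 0.0730), DESeq2's Wald test (adjusted p = 0.0773) or only the 2 groups compared (adjusted p = 0.0972). The count ratio of IFITM2 to IFITM3 was 0.413, 0.426 and 0.422 in shACSL5+PA against 0.595, 0.609 and 0.598 in shControl+PA. It was 0.428, 0.419 and 0.436 in shACSL5 against 0.588, 0.676 and 0.647 in shControl (exact 2-sided permutation test, p = 0.1 in both pairs, the smallest possible). The pair shares reads in part, since 34.3% of the 50-base stretches of IFITM2 and 35.2% of those of IFITM3 also occur in another gene, and how such reads were counted is not given in the sources used here.

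In the ISG15 system, ISG15 itself, which is attached to other proteins, changed by at most 0.14 on the log2 scale, with 72.5 ± 2.28 CPM in shACSL5+PA against 79.6 ± 1.23 in shControl+PA (log2 -0.14, SE 0.043, adjusted p = 0.0121) and 83.7 ± 1.97 in shACSL5 against 82.0 ± 1.499 in shControl (log2 0.030, SE 0.043, adjusted p = 0.561). The fall with palmitic acid was not called without shACSL5+PA replicate 1 (-0.11, adjusted p = 0.0648). USP18 (ENSG00000184979, chr22:18149899-18177397, plus strand), which removes ISG15 and damps the interferon receptor, had 7.30, 8.24 and 6.18 CPM in shACSL5+PA against 12.0, 11.4 and 9.16 in shControl+PA (log2 -0.58, SE 0.13, adjusted p = 0.000852). It had 8.15, 9.89 and 8.49 CPM in shACSL5 against 13.2, 15.2 and 12.8 in shControl (log2 -0.64, SE 0.13, adjusted p = 0.000146). Knockdown libraries lay below the controls in both pairs, and 23.4% of its 50-base stretches occur elsewhere, chiefly in USP41. The ligases that attach ISG15 or ubiquitin fell without palmitic acid, HERC5 by 0.20, HERC6 by 0.36 and TRIM21, an antibody receptor in the cytosol, by 0.38 (adjusted p = 0.00576, 0.00138 and 0.00190). With palmitic acid HERC5 fell by 0.24 (adjusted p = 0.00128), while HERC6 stood at -0.17 and TRIM21 at -0.19, neither called. The HERC5 fall without palmitic acid was not called without shControl replicate 1 (-0.15, adjusted p = 0.0504), and TRIM21 was called with palmitic acid without shACSL5+PA replicate 3 (-0.27, adjusted p = 0.0464).

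The transcription factors of the set split. IRF9 (ENSG00000213928, chr14:24161053-24166565, plus strand), the DNA-binding subunit of ISGF3, had 10.8, 12.6 and 11.4 CPM in shACSL5+PA against 15.1, 16.6 and 15.8 in shControl+PA (log2 -0.45, SE 0.099, adjusted p = 0.000623). It had 14.4, 15.5 and 15.1 CPM in shACSL5 against 26.2, 21.4 and 21.5 in shControl (log2 -0.62, SE 0.093, adjusted p = 4.59e-06). The knockdown libraries were lower in both pairs, although 48.4% of its exon bases lie in a readthrough gene on the same strand. STAT2 (ENSG00000170581, chr12:56341597-56360155, minus strand), its partner, had 42.6, 47.5 and 46.9 CPM in shACSL5+PA against 49.2, 46.2 and 46.1 in shControl+PA (log2 -0.047, SE 0.059, adjusted p = 0.535). It had 35.7, 37.0 and 38.0 CPM in shACSL5 against 47.5, 45.8 and 42.8 in shControl (log2 -0.30, SE 0.061, adjusted p = 0.000176). STAT2 was lower without palmitic acid, and the groups overlapped with it. IRF1 and IRF7, activators of interferon genes, stood between -0.055 and 0.075 in these comparisons and were not called.

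PARP9 and DTX3L form a complex of an ADP-ribosyltransferase and a ubiquitin ligase, share a promoter on chromosome 3 and are read in opposite directions. The ISRE match printed for PARP9 is the same stretch of the genome as that of DTX3L. PARP9 (ENSG00000138496, chr3:122527924-122564577, minus strand) had 11.7, 13.3 and 13.4 CPM in shACSL5+PA against 15.4, 18.8 and 18.7 in shControl+PA (log2 -0.46, SE 0.097, adjusted p = 0.000363). It had 12.3, 11.7 and 10.8 CPM in shACSL5 against 19.8, 19.1 and 20.2 in shControl (log2 -0.76, SE 0.097, adjusted p = 4.09e-07). DTX3L averaged 48.4 ± 1.06 CPM in shACSL5+PA and 49.3 ± 1.46 in shControl+PA, and 46.1 ± 3.23 in shACSL5 and 47.6 ± 2.104 in shControl, and was not called (SD, n = 3). The count ratio of PARP9 to DTX3L was 0.236, 0.279 and 0.280 in shACSL5+PA against 0.308, 0.373 and 0.392 in shControl+PA, and 0.289, 0.241 and 0.230 in shACSL5 against 0.408, 0.389 and 0.446 in shControl. The ratio was lower in every knockdown library (exact 2-sided permutation test, p = 0.1 in both pairs, the smallest possible). PARP14 (ENSG00000173193, chr3:122680618-122730840, plus strand), a further ADP-ribosyltransferase some way along the same chromosome, had 44.5, 40.4 and 35.7 CPM in shACSL5+PA against 61.8, 59.9 and 58.9 in shControl+PA (log2 -0.58, SE 0.067, adjusted p = 1.79e-07). It had 38.8, 39.8 and 34.9 CPM in shACSL5 against 63.3, 58.9 and 61.6 in shControl (log2 -0.70, SE 0.068, adjusted p = 5.36e-09), with no overlap.

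Of the remaining interferon-induced genes, IFI44 fell by 0.54 with (SE 0.066, adjusted p = 4.2e-07) and 0.45 without palmitic acid (SE 0.067, adjusted p = 3.98e-06). Its neighbour IFI44L (ENSG00000137959, chr1:78619922-78646145, plus strand) had 3.53, 3.49 and 2.79 CPM in shACSL5+PA against 2.68, 2.19 and 3.16 in shControl+PA (log2 0.29, SE 0.21, adjusted p = 0.258). It had 6.60, 5.80 and 5.01 CPM in shACSL5 against 4.61, 3.68 and 5.26 in shControl (log2 0.36, SE 0.18, adjusted p = 0.0933). The groups overlapped in both pairs, and the second difference was called without shControl replicate 3 (0.49, adjusted p = 0.0490). IFI35 rose by 0.26 without palmitic acid (adjusted p = 0.0209) and stood at 0.19 with it. Its rise was not called without shACSL5 replicate 1 (0.22, adjusted p = 0.0896) or shControl replicate 1 (0.24, adjusted p = 0.0629), and its difference with palmitic acid was called without shACSL5+PA replicate 3 (0.28, adjusted p = 0.0250). IFI6, a mitochondrial inhibitor of apoptosis, stood at -0.17 and -0.12 and was not called.

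XAF1, a promoter of apoptosis, was called lower from few reads. It had 5, 1 and 3 counts in shACSL5+PA against 23, 6 and 9 in shControl+PA (log2 -2.14, SE 0.68, adjusted p = 0.0108), and 9, 3 and 2 in shACSL5 against 12, 13 and 12 in shControl (log2 -1.47, SE 0.63, adjusted p = 0.0468). With palmitic acid it was not called without shACSL5+PA replicate 2 (-1.74, adjusted p = 0.0602) or shControl+PA replicate 1 (-1.40, adjusted p = 0.147). Without palmitic acid it was not called without shACSL5+PA replicate 1 (-1.47, adjusted p = 0.0516), shACSL5+PA replicate 3 (-1.47, adjusted p = 0.0567), shControl+PA replicate 3 (-1.47, adjusted p = 0.0542), shACSL5 replicate 2 (-1.33, adjusted p = 0.124), shACSL5 replicate 3 (-1.13, adjusted p = 0.172), shControl replicate 1 (-1.47, adjusted p = 0.0899), shControl replicate 2 (-1.43, adjusted p = 0.0976) or shControl replicate 3 (-1.52, adjusted p = 0.0776), nor with DESeq2's Wald test (adjusted p = 0.0634) or no filter on low counts (adjusted p = 0.0764). An antisense gene covers 38.3% of its exon bases, and the strand setting of the counting is not given in the sources used here.

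**Figure D3:**
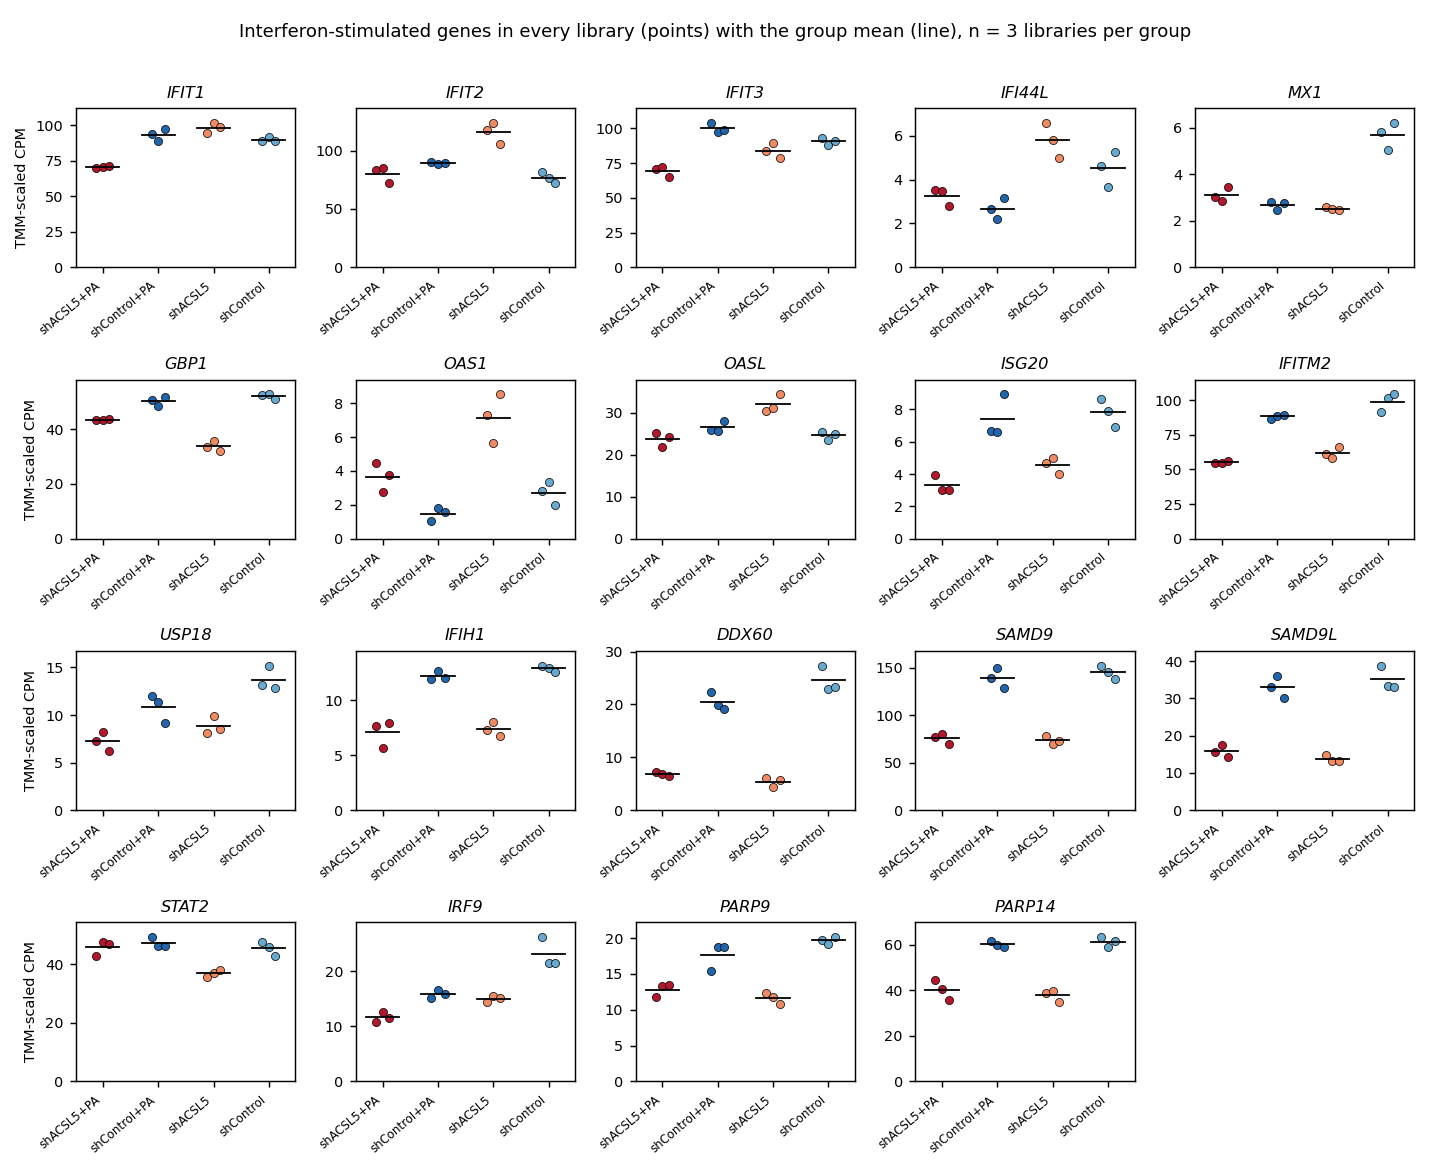
TMM-scaled CPM of 19 interferon-stimulated genes in each of the 12 libraries (points) with the mean of each group (line), n = 3 libraries per group, every axis starting at 0. DDX60, SAMD9, SAMD9L, IFIH1, PARP14 and IFITM2 stand lower in both knockdown groups, OAS1 stands higher in both, and MX1 is highest in shControl.

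Palmitic acid lowered more of the interferon-stimulated genes in knockdown cells than it raised, and IFIT2 and IFIT3 fell in knockdown cells but rose in control cells. In knockdown cells (shACSL5+PA over shACSL5), 11 of 36 genes fell (30.6%, against 9.78% of all genes tested) and 2 rose (5.56%, against 12.1%). In control cells (shControl+PA over shControl), 8 of 36 fell (22.2%, against 13.5%) and 2 rose (5.56%, against 15.1%). In control cells the falls numbered 4 without shControl replicate 2 and 5 without shControl+PA replicate 2, and the rises numbered 1 without shControl+PA replicate 1, shControl+PA replicate 3, shACSL5 replicate 1 or shControl replicate 2, and 0 without shControl replicate 3. The median log2 change was -0.14 in knockdown and -0.078 in control cells, against 0.012 and -0.0026 over all genes. The comparisons share no library but come from the same fit, and 5 genes fell in both (13.9%, against 4.41%), namely IFI44L, OAS1, IFITM2, DDX58 and IRF9.

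**Figure D4:**
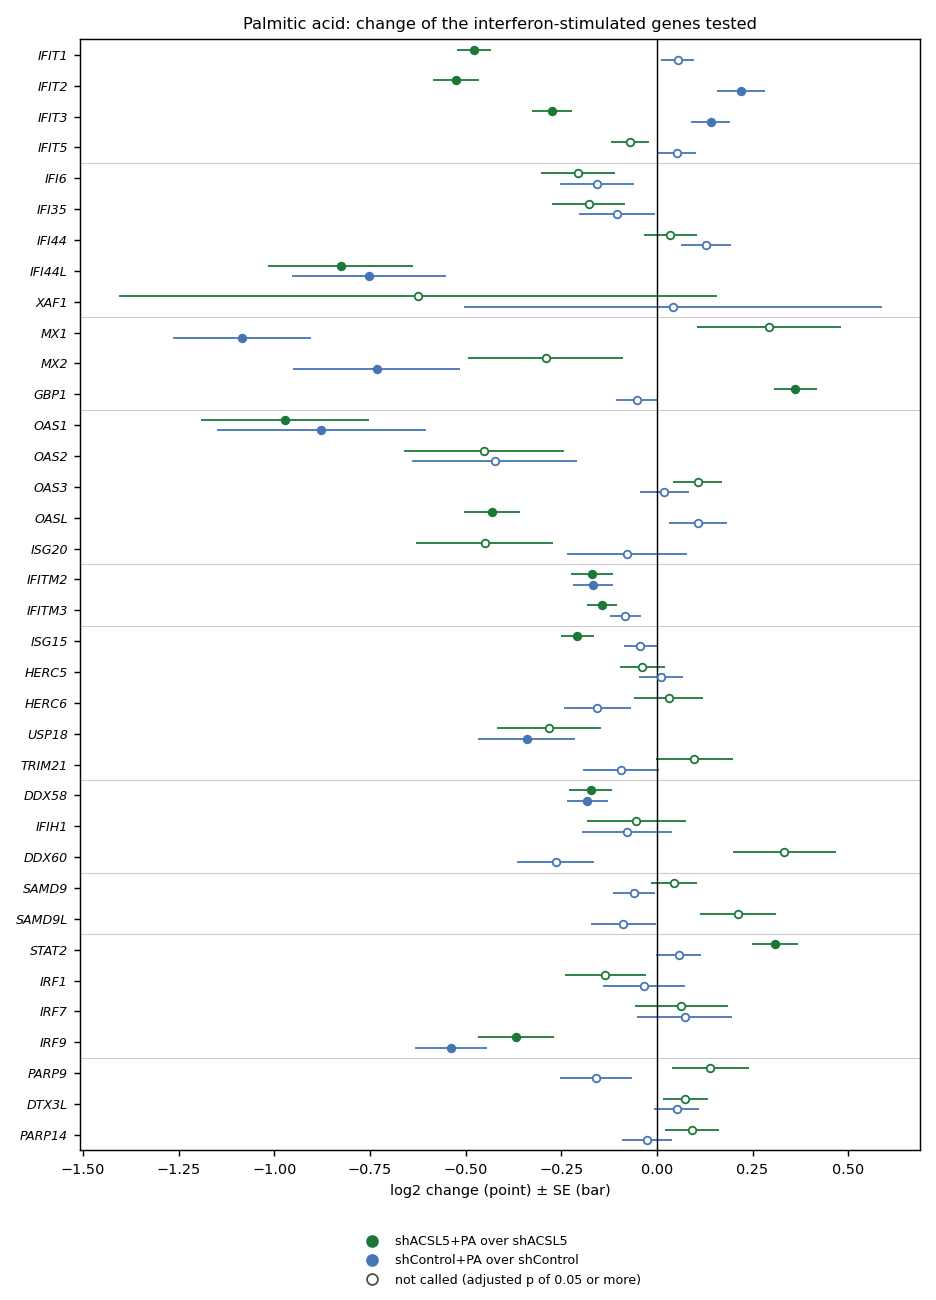
Log2 change with palmitic acid (point) and its SE (bar) for the 36 genes tested, in knockdown cells (green) and in control cells (blue), from 3 libraries per group. Open points were not called at an adjusted p under 0.05. IFI44L, OAS1 and IRF9 lie below 0 in both, MX1 lies at -1.08 in control cells, and IFIT1, IFIT2 and OASL lie lower in knockdown cells.

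OAS1 and IFI44L, whose levels in every library stand above, fell with palmitic acid in cells of either hairpin. OAS1 fell by 0.97 in knockdown cells (SE 0.22, adjusted p = 0.00259) and by 0.88 in control cells (SE 0.27, adjusted p = 0.0183). The control fall was not called without shControl+PA replicate 1 (-0.68, adjusted p = 0.101) or shControl replicate 2 (-0.70, adjusted p = 0.103). IFI44L fell by 0.83 in knockdown cells (SE 0.19, adjusted p = 0.00293) and by 0.75 in control cells (SE 0.20, adjusted p = 0.00671). IRF9 fell by 0.37 in knockdown cells (SE 0.099, adjusted p = 0.00985) and by 0.54 in control cells (SE 0.093, adjusted p = 0.000134). For these 3 genes the treated libraries lay below the untreated ones in both pairs, and the IRF9 fall in knockdown cells was not called without shACSL5+PA replicate 1 (-0.32, adjusted p = 0.0531).

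Smaller falls were seen in IFITM2, at -0.17, SE 0.055 in knockdown and -0.17, SE 0.052 in control cells (adjusted p = 0.0302 and 0.0179), and in DDX58, at -0.17, SE 0.056 and -0.18, SE 0.054 (adjusted p = 0.0299 and 0.0148). Each of these 4 calls was lost without some libraries. In knockdown cells the IFITM2 fall was not called without shACSL5+PA replicate 1 (-0.17, adjusted p = 0.0769), shACSL5+PA replicate 2 (-0.16, adjusted p = 0.0956), shACSL5 replicate 1 (-0.18, adjusted p = 0.0648) or shACSL5 replicate 3 (-0.12, adjusted p = 0.171). In control cells it was not called without shControl+PA replicate 1 (-0.15, adjusted p = 0.0761), shControl replicate 2 (-0.15, adjusted p = 0.0766) or shControl replicate 3 (-0.13, adjusted p = 0.113). The DDX58 fall was not called in knockdown cells without shACSL5+PA replicate 1 (-0.18, adjusted p = 0.0616), shACSL5+PA replicate 3 (-0.12, adjusted p = 0.167), shACSL5 replicate 2 (-0.14, adjusted p = 0.118) or shACSL5 replicate 3 (-0.16, adjusted p = 0.0957). In control cells it was not called without shControl+PA replicate 2 (-0.15, adjusted p = 0.0794) or shControl replicate 2 (-0.17, adjusted p = 0.0563).

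In knockdown cells palmitic acid also lowered the IFIT genes and OASL. IFIT2 fell by 0.53 (SE 0.060, adjusted p = 1.45e-06), IFIT1 by 0.48 (SE 0.044, adjusted p = 6.58e-08), OASL by 0.43 (SE 0.074, adjusted p = 0.000187) and IFIT3 by 0.27 (SE 0.052, adjusted p = 0.000566). ISG15 fell by 0.21 (adjusted p = 0.00114) and IFITM3 by 0.14 (adjusted p = 0.0123, not called without shACSL5+PA replicate 2 (-0.12, adjusted p = 0.0678) or shACSL5 replicate 3 (-0.11, adjusted p = 0.0795)). GBP1 rose by 0.36 (SE 0.056, adjusted p = 6.03e-05) and STAT2 by 0.31 (SE 0.061, adjusted p = 0.000711), the 2 rises in these cells. ISG20 stood at log2 -0.45, SE 0.18, adjusted p = 0.0756 and was called without shACSL5+PA replicate 1 (-0.60, adjusted p = 0.0410).

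In control cells IFIT2 rose by 0.22 with palmitic acid (SE 0.062, adjusted p = 0.00991) and IFIT3 by 0.14 (SE 0.051, adjusted p = 0.0414). Rising in control and falling in knockdown cells was called for these 2 of 36 genes (5.56%) and for 0.755% of all genes. The IFIT2 rise was not called without shControl replicate 3 (0.18, adjusted p = 0.0625). The IFIT3 rise was not called without shControl+PA replicate 1 (0.11, adjusted p = 0.169), shControl+PA replicate 3 (0.15, adjusted p = 0.0635), shACSL5 replicate 1 (0.14, adjusted p = 0.0503), shControl replicate 2 (0.12, adjusted p = 0.154) or shControl replicate 3 (0.15, adjusted p = 0.0784), nor with library sizes used without TMM factors (0.093, adjusted p = 0.194). MX1 fell by 1.08 (SE 0.18, adjusted p = 8.13e-05), the largest palmitic acid change of the set in control cells. MX2 fell by 0.73 (SE 0.22, adjusted p = 0.0139) and USP18 by 0.34 (SE 0.13, adjusted p = 0.0459). The MX2 fall was not called without shControl+PA replicate 1 (-0.64, adjusted p = 0.0617), shControl+PA replicate 2 (-0.62, adjusted p = 0.0694) or shControl replicate 1 (-0.58, adjusted p = 0.0804). The USP18 fall was not called without shACSL5+PA replicate 1 (-0.34, adjusted p = 0.05005), shControl+PA replicate 2 (-0.38, adjusted p = 0.0638), shControl+PA replicate 3 (-0.23, adjusted p = 0.219), shACSL5 replicate 1 (-0.34, adjusted p = 0.0505), shControl replicate 1 (-0.37, adjusted p = 0.0624) or shControl replicate 2 (-0.26, adjusted p = 0.199). It was also not called with the size factors of DESeq2 (adjusted p = 0.0526), DESeq2's Wald test (adjusted p = 0.0728) or no filter on low counts (adjusted p = 0.0531). DDX60 stood at log2 -0.27, SE 0.10, adjusted p = 0.0549 and was called without shControl+PA replicate 1 (-0.33, adjusted p = 0.0431) or shACSL5 replicate 2 (-0.26, adjusted p = 0.0353), and also with library sizes alone (-0.31, adjusted p = 0.0244) or only the 2 groups compared (-0.27, adjusted p = 0.0284), and HERC6 stood at -0.16 and was called without shControl replicate 3 (-0.25, adjusted p = 0.0425).

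Whether palmitic acid acted differently by hairpin was tested with the interaction, the change in knockdown cells minus the change in control cells. It was called for 8 of 36 genes, 4 higher (11.1%, against 7.15% of all genes) and 4 lower (11.1%, against 7.39%). The 4 lower ones were IFIT2 (log2 -0.75, SE 0.087, adjusted p = 4.19e-06), OASL (log2 -0.54, SE 0.11, adjusted p = 0.00133), IFIT1 (log2 -0.53, SE 0.062, adjusted p = 4.6e-06) and IFIT3 (log2 -0.42, SE 0.073, adjusted p = 0.000479). IFIT1, IFIT2 and IFIT3 are neighbours on chromosome 10, and IFIT5, the next gene, stood at log2 -0.12, SE 0.070, adjusted p = 0.276. The 4 higher ones were MX1 (log2 1.38, SE 0.26, adjusted p = 0.000953), DDX60 (log2 0.60, SE 0.17, adjusted p = 0.0184), GBP1 (log2 0.41, SE 0.077, adjusted p = 0.000846) and STAT2 (log2 0.25, SE 0.085, adjusted p = 0.0492). MX1 fell with palmitic acid in control cells and stood at log2 0.29, SE 0.19, adjusted p = 0.296 in knockdown cells. The DDX60 interaction was not called without shACSL5 replicate 2 (0.47, adjusted p = 0.0580) or shControl replicate 1 (0.51, adjusted p = 0.0525). That of STAT2 was not called without shACSL5+PA replicate 2 (0.22, adjusted p = 0.125), shACSL5+PA replicate 3 (0.23, adjusted p = 0.0935), shControl+PA replicate 2 (0.24, adjusted p = 0.0978), shControl+PA replicate 3 (0.23, adjusted p = 0.102), shACSL5 replicate 1 (0.23, adjusted p = 0.120), shACSL5 replicate 2 (0.25, adjusted p = 0.0711), shACSL5 replicate 3 (0.27, adjusted p = 0.0518), shControl replicate 1 (0.22, adjusted p = 0.125) or shControl replicate 2 (0.24, adjusted p = 0.0974), nor with the size factors of DESeq2 (adjusted p = 0.0637), DESeq2's Wald test (adjusted p = 0.0787) or no filter on low counts (adjusted p = 0.0609).

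Upstream of these genes, several receptor genes fell with the knockdown. Of 6 interferon receptor genes, 3 fell (50%, against 26.1% of all genes) and 1 rose (16.7%, against 24.4%) with palmitic acid, and 5 fell without it (83.3%, against 32.6%). IFNAR1, a subunit of the type I receptor, had 41.3, 48.4 and 41.4 CPM in shACSL5+PA against 73.6, 72.9 and 72.8 in shControl+PA (log2 -0.74, SE 0.058, adjusted p = 4.22e-10). It had 31.3, 32.5 and 29.004 CPM in shACSL5 against 71.8, 70.2 and 70.9 in shControl (log2 -1.198, SE 0.061, adjusted p = 9.48e-14). The knockdown libraries lay far below the controls, and the interaction was 0.46, SE 0.085 (adjusted p = 0.000771), with a rise of 0.50 by palmitic acid in knockdown cells. IFNLR1, the type III receptor, fell by 0.71 with (adjusted p = 0.000330) and 1.07 without palmitic acid (adjusted p = 8.21e-07). IFNGR1, of the type II receptor, fell by 0.24 (adjusted p = 0.0204) and 0.53 (adjusted p = 8.3e-06), the first not called without shACSL5+PA replicate 1 (-0.17, adjusted p = 0.122), shControl+PA replicate 1 (-0.22, adjusted p = 0.0656) or shControl+PA replicate 3 (-0.18, adjusted p = 0.116). IFNAR2, the partner of IFNAR1, rose by 0.28 with palmitic acid (adjusted p = 0.00736) and stood at 0.012 without it, while 83.3% of its exon bases lie in other genes, 39.1% in genes on the opposite strand. IL10RB shares 38.1% of its exon bases with a gene on its own strand. IFNGR2, of the type II receptor, and IL10RB, shared by the type III receptor, stood at 0.00030 and -0.11 with palmitic acid, neither called. Without it they fell by 0.27 and 0.26 (adjusted p = 0.00152 and 0.00297).

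**Figure D5:**
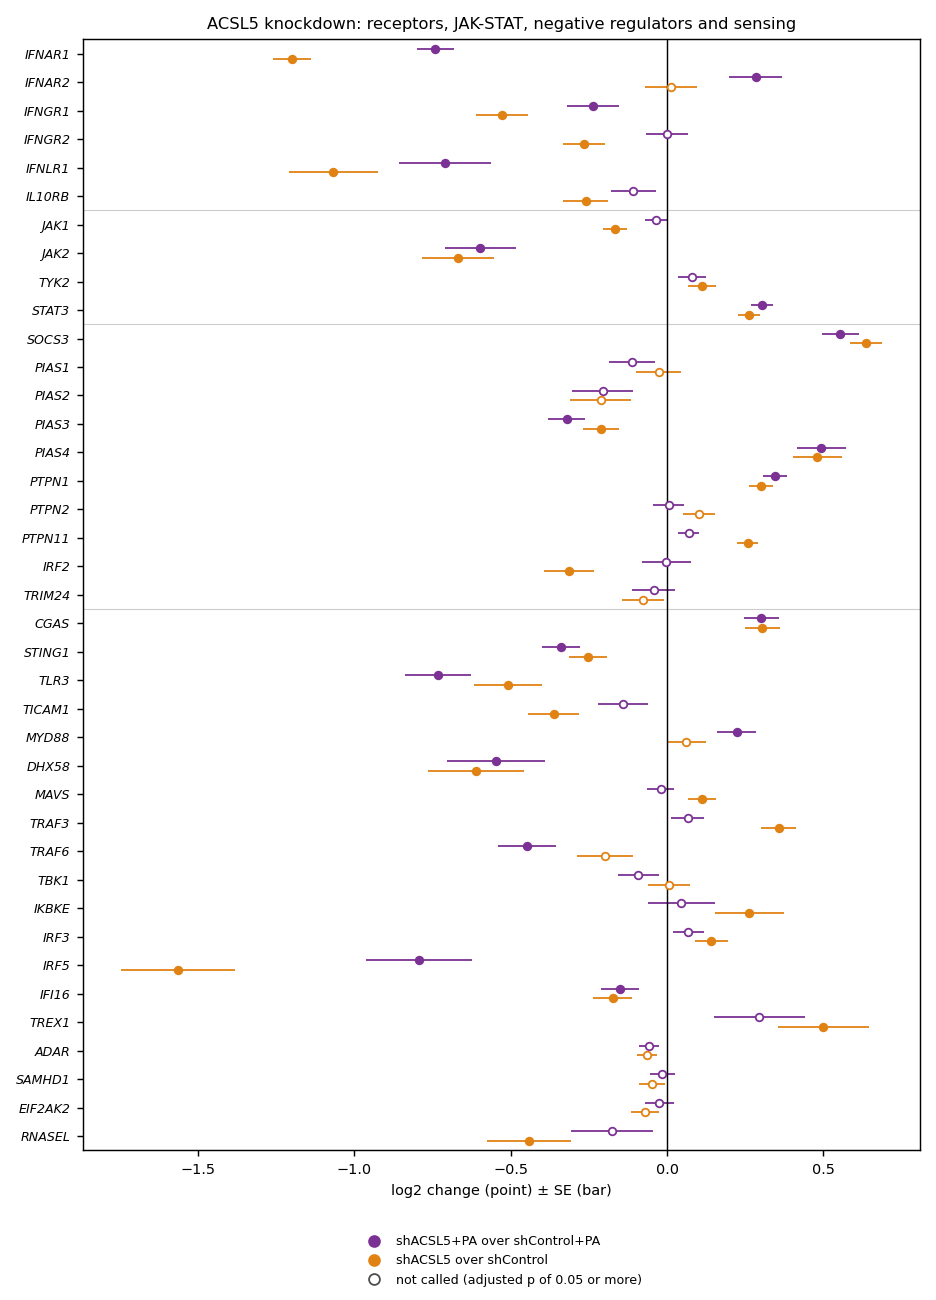
Log2 change with ACSL5 knockdown (point) and its SE (bar) for interferon receptors, JAK-STAT genes, negative regulators and nucleic acid sensing genes with a mean of at least 5 CPM in a group, with palmitic acid (purple) and without it (orange), from 3 libraries per group. Open points were not called. IFNAR1 lies at -0.74 with and -1.198 without palmitic acid, and IRF5 lies at -0.79 and -1.56.

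Among 4 JAK-STAT genes, JAK2, the kinase of the type II receptor, fell by 0.60 with palmitic acid (adjusted p = 0.000122) and 0.67 without it (adjusted p = 2.43e-05). STAT3 rose by 0.30 and 0.26 (adjusted p = 1.45e-07 and 6.19e-07). JAK1 and TYK2, which carry the type I signal, stood at -0.035 and 0.080 with palmitic acid, neither called. Without it JAK1 fell by 0.17 (adjusted p = 0.000524), and TYK2 rose by 0.11 (adjusted p = 0.0332). The TYK2 rise was not called with library sizes alone (0.088, adjusted p = 0.0876) nor without shACSL5 replicate 1 (0.10, adjusted p = 0.103), shACSL5 replicate 3 (0.096, adjusted p = 0.108), shControl replicate 1 (0.092, adjusted p = 0.124) or shControl replicate 3 (0.12, adjusted p = 0.0533), and with palmitic acid it was called without shACSL5+PA replicate 1 (0.13, adjusted p = 0.0226).

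Of 12 negative regulators, 3 rose (25%, against 24.4% of all genes) and 1 fell (8.33%, against 26.1%) with palmitic acid. Without it 4 rose (33.3%, against 29.7%) and 3 fell (25%, against 32.6%). SOCS3, which blocks JAK kinases, averaged 46.5 ± 2.26 CPM in shACSL5+PA against 31.6 ± 2.32 in shControl+PA and 107 ± 3.87 in shACSL5 against 68.7 ± 2.07 in shControl (SD, n = 3). It rose with the knockdown by 0.55 (adjusted p = 6.79e-08) and 0.64 (adjusted p = 2.84e-10). Palmitic acid lowered it by 1.202 in knockdown cells (adjusted p = 3.7e-13) and by 1.12 in control cells (adjusted p = 2.08e-12). The phosphatase PTPN1 rose by 0.34 and 0.30, and the SUMO ligase PIAS4 by 0.49 and 0.48, with and without palmitic acid. Its relative PIAS3 fell by 0.32 and 0.21 (adjusted p = 9.14e-05 and 0.00333). The phosphatase PTPN6 fell by 0.68 and the repressor IRF2 by 0.31 without palmitic acid (adjusted p = 0.0195 and 0.00179), and they stood at -0.12 and -0.0020 with it, neither called.

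Of 20 genes that sense nucleic acids or relay that signal towards interferon, 19 were tested. With palmitic acid 2 rose (10.5%, against 24.4% of all genes) and 6 fell (31.6%, against 26.1%). Without it 6 rose (31.6%, against 29.7%) and 7 fell (36.8%, against 32.6%). IRF5, a factor that activates interferon and cytokine genes, fell by 0.79 (adjusted p = 0.000421) and 1.56 (adjusted p = 1.1e-07). TLR3, the receptor for double-stranded RNA in endosomes, fell by 0.73 and 0.51 (adjusted p = 3.5e-06 and 0.000327). The DNA sensor CGAS rose by 0.30 and 0.30, while STING1, which relays its signal, fell by 0.34 and 0.25.

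A further list of 43 interferon-induced genes outside the set was read for comparison, of which 35 were tested. With palmitic acid 9 rose (25.7%, against 24.4% of all genes) and 12 fell (34.3%, against 26.1%) with the knockdown. Without it 10 rose (28.6%, against 29.7%) and 15 fell (42.9%, against 32.6%), and the median log2 changes were 0.014 with and -0.065 without palmitic acid. GBP2, a relative of GBP1, averaged 32.4 ± 0.778 CPM in shACSL5+PA against 62.3 ± 1.90 in shControl+PA (log2 -0.94, SE 0.053, adjusted p = 1.52e-12) and 31.7 ± 0.971 in shACSL5 against 92.5 ± 3.42 in shControl (log2 -1.55, SE 0.052, adjusted p = 7.03e-17). The apolipoprotein gene APOL6 fell by 0.68 and 0.90. SHISA5 rose by 0.64 and 0.82, and the secreted glycoprotein gene LGALS3BP rose by 0.65 without palmitic acid. UBE2L6, the enzyme that hands ISG15 to its ligases, averaged 6.69 ± 0.314 CPM in shACSL5+PA and 6.36 ± 0.443 in shControl+PA, and 6.65 ± 1.13 in shACSL5 and 11.2 ± 1.66 in shControl, and its interaction was log2 0.83, SE 0.20, adjusted p = 0.00766.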

How the data were processed

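The values the authors deposited are unnormalized counts of reads for each gene. The submitters' processing notes name fastp 0.22.0, HISAT2 2.1.0, featureCounts and the GRCh38 build. The annotation release, strand setting and handling of shared reads are not stated in these sources. Of the 57730 genes, 51928 identifiers matched a current symbol. No counts of mitochondrially encoded genes were found in any library.

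Groups and replicate numbers come from the sample titles. Genes were filtered with edgeR's filterByExpr (14706 kept), scaled with TMM factors, and the 12 libraries entered a single quasi-likelihood fit (edgeR 4.0.16, R 4.3.3). The p-values were adjusted by Benjamini-Hochberg over all genes tested, with calls made under 0.05. Adjusted p-values are those of edgeR's fit except where another test is given. Changes are log2 ratios, and their SE is the absolute change divided by the square root of the F statistic, which is approximate and can be too small where few reads back a large change. Levels are TMM-scaled CPM, and a level per kilobase divides by the merged exon length of GENCODE v29. The fit was also run on simulated counts in which a small part of the genes was changed. Far more genes were called in these data, so that run does not cover changes this wide. Pairs of replicates differed by more than sampling noise, so none was counted as 1 library. Depth limits low genes most: counting intervals and floors cover counting error only.

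The members and lists were chosen with earlier results of these data known, and some listed genes are not reported here. Values in every library are given for tested members that average at least 5 CPM in a group and were called in a pairwise comparison with a log2 change of at least 0.58 or in the interaction. Named genes of the other lists were taken mainly from the called ones with the smallest p, up to 4 per list and comparison, with receptors and JAK-STAT genes always named. Some genes that met this rule are not named, and PTPN6 and further comparisons of named genes are given outside it. XAF1, IFI27 and other members outside the first rule were named to account for the set. Alternatives were the size factors of DESeq2 1.42.0, its Wald test, library sizes alone, no filter, a replicate block, only the 2 groups compared, and each library left out. Protein identity within the IFIT and IFITM families was not computed.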

Additional observations from a re-analysis of the deposited data

Results flagged for a closer look

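For 8 of the 36 interferon-stimulated genes tested, the change with palmitic acid differed between knockdown and control cells by the test of that difference (edgeR, adjusted over all genes). Of these, 4 were higher (11.1%, against 7.15% of all genes) and 4 lower (11.1%, against 7.39%). IFIT2 stood at -0.75 (knockdown minus control, log2), OASL at -0.54, IFIT1 at -0.53 and IFIT3 at -0.42. MX1 stood at 1.38, DDX60 at 0.60, GBP1 at 0.41 and STAT2 at 0.25. The STAT2 call was lost in 13 of 17 alternative settings, and that of DDX60 in 2 of 17. No group of 3 libraries was examined for single outlying libraries.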

How the results depend on the processing

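Under none of the alternatives did a called change of a gene of the set reverse its direction. Of 180 gene and comparison pairs, the call was the same in 177 with the size factors of DESeq2 in edgeR, 176 with library sizes alone, 176 with no low-count filter, 174 of 178 with DESeq2's Wald test, 140 of 142 with only the 2 groups compared, and 171 to 175 with 1 library left out. With library sizes alone, 1 gene of the set rose with palmitic acid in control cells, against 2. Of all genes called with palmitic acid in control cells, 52.8% were higher, and 35.9% with library sizes alone. For the interaction the shares were 49.2% and 59.9%. The replicate numbers gave no pairing of libraries that held in all groups (correlations of deviations from -0.0645 to 0.191 over 18 pairs, 4 of them over 0.1). Replicate 3 of shACSL5+PA correlated with replicate 3 of shACSL5 (0.170) and of shControl (0.141), and the last 2 with each other (0.191). Libraries of unlike number reached 0.164, between shACSL5+PA replicate 1 and shControl+PA replicate 3. A replicate block left 6 rises and 22 falls with the knockdown without palmitic acid, and the interaction of STAT2 was no longer called (0.25, adjusted p = 0.0574). With the block IFIT3 was called lower with the knockdown without palmitic acid (-0.12, adjusted p = 0.0407), and DDX60 was called with palmitic acid, lower in control cells (-0.26, adjusted p = 0.0324) and higher in knockdown cells (0.34, adjusted p = 0.0454).

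Leaving out 1 library at a time, the number of falls with the knockdown ran from 18 to 20 with and 19 to 21 without palmitic acid, and that of rises from 1 to 3 and from 5 to 7. With palmitic acid the falls ran from 8 to 11 in knockdown and 4 to 9 in control cells, and the rises were 2 in knockdown and 0 to 2 in control cells. The interaction gave 2 to 4 genes higher, with 2 without shACSL5 replicate 2 or shControl replicate 1, and 4 lower throughout. ACSL5 changed by -3.76 to -3.56 with and -3.76 to -3.62 without palmitic acid. The causes were not tested. Changes of low genes such as XAF1 and OAS1 rest on few counts. Of the 6 genes under the filter on low counts, IFI27 was called in 1 comparison without that filter, and RSAD2 stood at 2.91 (adjusted p = 0.191) with the knockdown without palmitic acid.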
